A study of Mus musculus with 47 samples.

Results

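The smooth muscle contractile apparatus was followed as 39 named genes of the 17078 in the table, listed by symbol, and every member was found. RNA-seq was performed on luminal and basal mammary epithelial cells of FVB/N mice at 8 time points, in 46 libraries, of which 24 were luminal and 22 basal. Virgin glands were taken at 10 weeks (W10) and 4 months (M4), pregnant glands at days 3.5 (P3.5) and 14.5 (P14.5), lactating glands at days 3 (L3) and 10 (L10), and involuting glands 2 days (Id2) and 4 weeks (Iw4) after forced weaning. Each of the 16 conditions held 3 libraries except basal P14.5 and basal L10, which held 2 each, and no transgene or drug is named in the labels. Each sort pooled the glands of several mice and removed cells stained for CD11b, CD45, Ly-6G/C, Ter-119, CD31 or CD140a, then split the CD24-positive cells by low (luminal) or high (basal) CD29. The gates were set a little differently from sort to sort. In the comparisons below, lactation is L3 and L10 together (5 basal and 6 luminal libraries) and non-pregnant is W10, M4 and Iw4 together (9 and 9). All lactation libraries were amplified in batch 5 and no other libraries were, so that batch and lactation cannot be told apart. W10 and Id2 shared batch 4, P3.5 and P14.5 shared batch 6, and Iw4 and M4 were each spread over batches 1, 2 and 3. Sequencing lanes differed between W10 (lane 2) and Id2 (3), P3.5 (5) and P14.5 (6), and L3 (7) and L10 (8). Lane and time point therefore cannot be told apart in those comparisons. Iw4 and M4 were on lane 7. Replicate 4 of L3 and of L10 were sorted on the same day, as were replicate 5 of both, so that the lactation libraries came from fewer days than sorts, and the fits treat them as independent unless a block by day is named.

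Basal cells of the mammary gland are myoepithelial cells, which wrap the alveoli and ducts and squeeze milk outward when oxytocin reaches them. Their contraction uses the machinery of smooth muscle. Calcium and calmodulin switch on myosin light chain kinase, the phosphorylated myosin pulls on actin filaments, a phosphatase reverses the step, and the Rock kinases hold that phosphatase in check. Calponins, caldesmon, tropomyosins and transgelin sit on the thin filament, and desmin filaments and dense bodies carry the pull to the cell surface. Many of these genes are controlled by serum response factor (Srf), which binds a DNA element called the CArG box, and by its muscle cofactor myocardin (Myocd). Pericytes, the contractile cells on the wall of small vessels, use many of the same genes.

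CArG boxes were looked for in the RefSeq promoters of the members (GRCm38.p6), each window running from 250 bases before to 50 after the start of the gene, because that element links many members to Srf. Windows were found for 32 of the 39 members, and not for Rock1, Actg2, Tnni2, Tagln, Myocd, Myh11 or Svil. The consensus box, which reads the same on both strands, lay in the windows of 5 member genes (Myl9, Myl6, Cnn2, Vcl and Srf) and in 1.63% of all 32851 windows. A box with a single C or G in its A/T run lay in the windows of 6 member genes (Acta2, Myl9, Flnc, Synm, Pdlim3 and Lpp) and in 8.50% of all windows. Stretches of 4 promoters are shown, each on the strand of its gene and with the boxes in capitals: that of the most abundant member, that of a myosin light chain holding both kinds of box, that of Srf itself, and that of an adhesion protein. The Acta2 stretch is chr19:34255374-34255473 (minus strand), that of Myl9 is chr2:156775289-156775388 (plus), that of Srf is chr17:46556173-46556272 (minus) and that of Vcl is chr14:20929148-20929247 (plus).
Acta2: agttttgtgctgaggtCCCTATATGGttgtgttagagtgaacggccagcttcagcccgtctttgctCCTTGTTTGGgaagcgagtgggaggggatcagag
Myl9: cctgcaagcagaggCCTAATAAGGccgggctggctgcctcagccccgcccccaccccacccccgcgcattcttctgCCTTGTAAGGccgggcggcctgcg
Srf: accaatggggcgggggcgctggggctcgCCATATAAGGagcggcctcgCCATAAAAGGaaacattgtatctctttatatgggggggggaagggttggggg
Vcl: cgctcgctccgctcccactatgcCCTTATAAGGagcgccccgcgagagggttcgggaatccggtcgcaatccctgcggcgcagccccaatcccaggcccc
The boxes of Acta2 began 84 and 34 bases before its start, those of Myl9 161 and 99, those of Srf 82 and 62 and that of Vcl 227. A match is a run of letters, and no binding was measured.

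Expression is given as CPM, reads scaled to a common library size, which is the normalized value of the deposited table. The libraries held 4398806 to 20023054 reads (median 8518616), at which 3 reads, the limit that a count of 0 allows, came to between 0.17 and 1.05 CPM. Differences are on the log2(CPM + 1) scale with their standard error (SE), and a gene was called when it differed by 2-fold or more at an adjusted p under 0.01 in limma's moderated test over all 17078 genes. In sorted bulk cells, fewer cells of a type and less RNA per cell cannot be told apart.

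Several libraries stood apart before any comparison was made. Krt5, a keratin of basal cells, measured 4.68, 156 and 6.95 CPM in Id2 basal replicates 2, 4 and 6, and 779 to 3849 CPM in the other 19 basal libraries. Id2 basal replicates 2 and 6 are thus nearly without the defining keratin of their label, and replicate 4 held less of it than any basal library outside Id2. Comparisons that do not involve Id2 were also fitted without the Id2 basal libraries. In luminal cells Krt5 was 50.1 to 1143 CPM in the 6 lactation libraries and 8.37 to 33.1 CPM in the 9 non-pregnant ones. Luminal lactation libraries therefore held more basal keratin RNA than the non-pregnant libraries, with no overlap.

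Pericyte markers moved with the time points in basal cells. All 10 markers on the list were in the table, and their summed level was 429, 519 and 613 CPM in the W10 basal libraries, 392, 446 and 472 at M4, and 611, 751 and 619 at Iw4. It was 166, 149 and 202 CPM at P3.5 and 1630 and 1652 at P14.5, then 1905, 4172 and 7979 at L3 (replicates 4, 5 and 6) and 9299 and 16281 at L10. In the Id2 basal libraries it was 4053, 11265 and 3144 CPM. The sum thus varied widely among the 5 lactation libraries, and each of them lay above all 9 non-pregnant ones. The most abundant marker was Anpep, which luminal cells also carried, in the non-pregnant and P3.5 basal libraries, and Rgs5 in the basal libraries of P14.5, lactation and Id2. Higd1b was at 0 in all W10 and P3.5 basal libraries and in M4 replicate 1, and no pericyte marker was at 0 in lactation.

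In lactation, 9 of the 10 pericyte markers were called higher in basal cells than in non-pregnant glands (median log2 change 4.00), as were 9 of 9 endothelial markers (2.71) and 2 of 9 fibroblast markers (2.06). None of the 6 basal markers outside the member list (Krt5, Krt14, Trp63, Snai2, Oxtr and Itga6) was called in either direction there (median 0.37). Of the skeletal muscle list 5 of 10 genes were in the table, and Acta1, Myh1 and Myh2 were called higher. Of the adipocyte list 2 of 5 genes were in the table, and both were called higher: their summed level was 157 to 283 CPM in the 5 lactation libraries, most of it Lep, and 0.535 to 3.90 CPM in the 9 non-pregnant ones. Of 6 milk protein genes 5 were called higher, with a sum of 8278 to 45766 CPM in lactation and 314 to 12774 CPM in non-pregnant basal libraries. The immune marker sum was 10.2 to 22.2 CPM in non-pregnant, 23.0 to 66.9 CPM at L3 and 22.6 to 86.7 CPM at L10 basal libraries. The part of these other cell types in the results on basal lactation libraries was not tested beyond the values given beside them.

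Levels between genes were compared per kilobase of exon, using exon lengths of the GRCm38 annotation. Acta2, the smooth muscle alpha actin, was highest both in non-pregnant basal libraries (mean 3685 CPM per kb) and in lactation (8956 CPM per kb). Csrp1, a LIM protein of actin filaments, came second in non-pregnant libraries (1005 CPM per kb) and was followed by the regulatory light chain Myl9 (847), the calponin Cnn1 (426), the heavy chain Myh11 (418) and the tropomyosin Tpm2 (341). In lactation the order after Acta2 was Myl9 (4410 CPM per kb), Myh11 (3130), Csrp1 (2682), Tpm2 (2533) and Cnn1 (1720). The same 6 genes thus held the first 6 places at both stages, in another order, while Actg2 ranked 11 and 8 and Myl6 26 and 29. At the bottom of the non-pregnant order lay Des, the muscle intermediate filament protein (1.95 CPM per kb), Myocd (0.895) and Tnni2, a fast skeletal troponin I (0.0176). Those 3 reached 125, 32.8 and 22.8 CPM per kb in lactation.

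The first comparison asked how the apparatus differs between the cell types. Averaged over the 8 time points, 32 of the 39 members were higher in basal than in luminal cells and none was lower, against 13.6% of all genes called higher and 7.35% called lower. The median log2 difference was 2.65 over the members and 0.02 over all genes. The largest differences were those of Myh11 (7.16 ± 0.24 SE, 142-fold), Acta2 (7.13 ± 0.23), Mylk, the light chain kinase (6.86 ± 0.21), Cnn1 (6.84 ± 0.25), Myl9 (6.77 ± 0.24), Tpm2 (6.42 ± 0.24) and Actg2, the enteric smooth muscle actin (6.26 ± 0.27). The 7 members that were not called were Ppp1r14a, an inhibitor of the myosin phosphatase, the kinases Rock1 and Rock2, the broadly expressed calponin Cnn3, Tnni2, the alpha actinin Actn4 and the filamin Flnc.

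By role, both actins and all 3 myosin chains (Myh11, Myl9 and the essential light chain Myl6) were called higher in basal cells. Of the 4 genes acting on the light chain, Mylk and the phosphatase targeting subunits Ppp1r12a (2.50 ± 0.11) and Ppp1r12b (2.53 ± 0.15) were called. Among the 3 upstream kinases it was only Prkg1, the cGMP-dependent kinase (2.67 ± 0.20). Of the 11 thin filament genes 9 were called: Cnn1, Cnn2, Tagln (transgelin, 5.39 ± 0.17), Tpm1, Tpm2, Tpm4, Cald1 (caldesmon, 4.30 ± 0.14), Smtn (smoothelin) and Lmod1 (leiomodin, 4.79 ± 0.19). All 4 genes of the intermediate filaments and their anchors were called, namely Des (3.65 ± 0.23), Synm (synemin, 4.83 ± 0.18), Synpo2 (5.92 ± 0.20) and Svil (supervillin, 1.27 ± 0.11). Of the 10 dense body and focal adhesion genes 8 were called, from Lpp (1.18 ± 0.12) to the filamin Flna (3.12 ± 0.14). Between them lay vinculin (Vcl), talin (Tln1), the alpha actinin Actn1, and the LIM proteins Pdlim3, Pdlim7 and Csrp1. Both transcription genes were called, Myocd at 3.70 ± 0.23 and Srf at 1.29 ± 0.12. Vcl shares 25.5% of its exon bases with Ap3m1 and Tagln 62.4% with an antisense gene, each on the opposite strand, and reads of such partners cannot be told apart here.

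Taken by time point, 26 members were called higher in basal cells at W10 (9.1% of all genes), 28 at M4 (8.2%), 26 at P3.5 (7.27%) and 29 at P14.5 (9.54%). There were 37 at L3 (15.9% of all genes), 36 at L10 (13.8%), 26 at Id2 (12.2%) and 28 at Iw4 (7.79%). No member was called higher in luminal cells at any time point, where the share of all genes was 5.12% at W10, 4.24% at M4, 4.64% at P3.5, 3.39% at P14.5, 9.87% at L3, 10.9% at L10, 9.39% at Id2 and 3.75% at Iw4. The median log2 difference of the members was 2.15 at W10, 4.61 at L3 and 3.71 at L10. In the fit that used only the spread of the compared conditions, 1 member in place of 26 was called at Id2, where the 3 basal libraries lie far apart. The members called at every time point numbered 19, against 2.39% of all genes, and Ppp1r14a was called at none. Des was called at 6 of the 8 time points, Myocd at 7, Rock2 at 3, Rock1 and Flnc at 1 each and Tnni2 only at L3 and L10. For 13 members (1.23% of all genes), among them Acta2, Myh11, Mylk, Tagln and Cald1, every basal library lay above every luminal library. With the Id2 basal libraries left out that held for 24 members (2.87% of all genes), with Actg2, Cnn1, Tpm2, Lmod1 and Synm among those added.

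**Figure D1:**
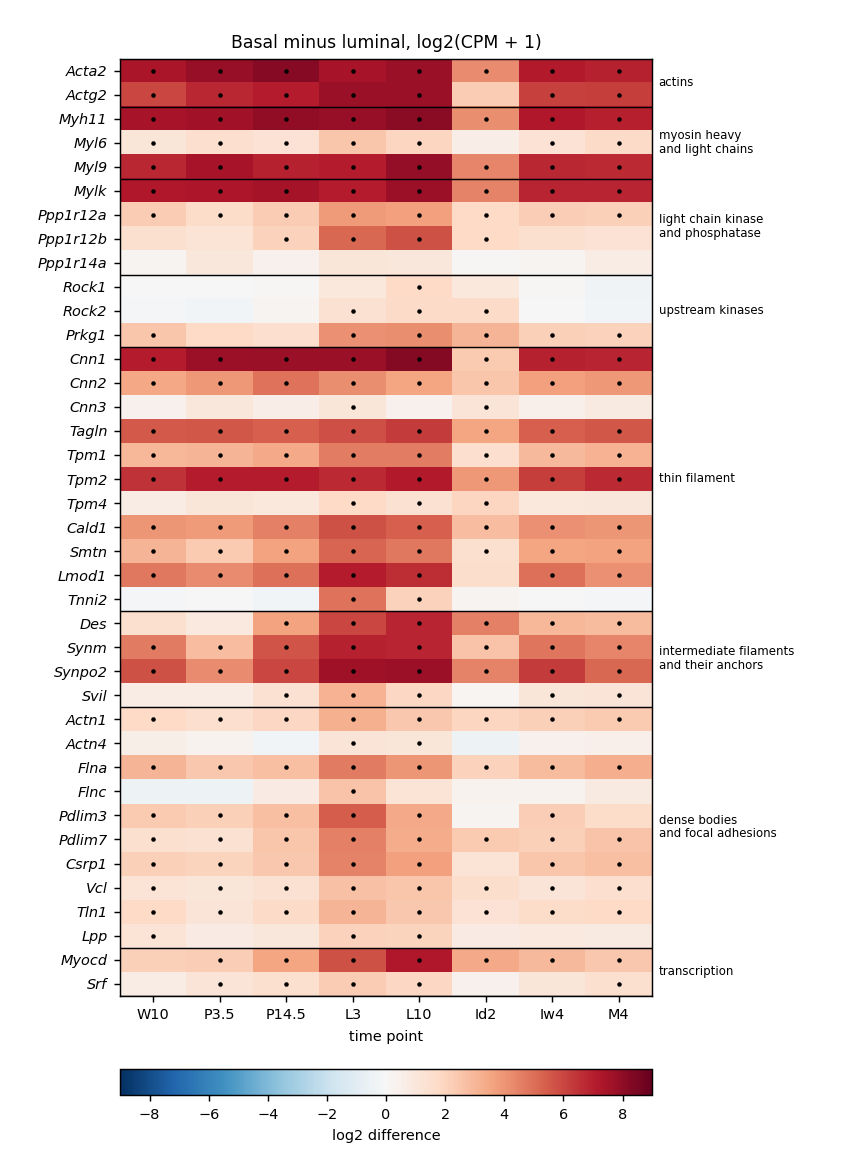
Log2 difference between basal and luminal cells on the log2(CPM + 1) scale for each member (rows, by role) at each time point (columns), with a dot where the member was called. The counts of dots run from 26 at W10, P3.5 and Id2 to 37 at L3, and no member was called in the luminal direction.

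The levels of the members in single libraries show the course over the reproductive cycle. Acta2, the actin that defines myoepithelial cells in tissue sections, measured 8825, 8588 and 13108 CPM at W10, 9303, 5251 and 5891 at M4 and 5418, 6533 and 9911 at Iw4 in basal cells. It measured 4826, 5792 and 5883 CPM at P3.5 and 8612 and 6631 at P14.5. In lactation it measured 29688, 24157 and 12014 CPM at L3 and 17766 and 16996 at L10. The lowest lactation library thus fell within the non-pregnant range, and the others lay above it. The Id2 libraries measured 537, 8399 and 515 CPM for Acta2, of which replicate 4 was within the non-pregnant range and replicates 2 and 6 were far below it. In luminal cells Acta2 ran from 15.3 to 152 CPM (median 51.9, n = 24), below every basal library.

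Myh11, the smooth muscle myosin heavy chain, showed the wider change. In basal cells it measured 4501, 4198 and 5586 CPM at W10, 2935, 1887 and 1767 at M4 and 1881, 2639 and 3161 at Iw4. At P3.5 it measured 1915, 1976 and 1552 CPM, and at P14.5 5755 and 3845. The L3 libraries measured 24320, 31707 and 17227 CPM for Myh11 and the L10 libraries 19627 and 26675. Every lactation library was thus above every other basal library for Myh11. The Id2 libraries measured 307, 5346 and 284 CPM, again with replicate 4 apart from the others. In luminal cells Myh11 ran from 6.75 to 156 CPM (median 28.8).

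Mylk phosphorylates the light chain and so starts contraction. Its basal values were 2162, 1979 and 3300 CPM at W10, 2057, 1154 and 1391 at M4 and 1348, 1761 and 2744 at Iw4. They were 1281, 1024 and 917 CPM at P3.5 and 3062 and 2398 at P14.5, and rose to 8712, 8718 and 5117 at L3 and 6807 and 8842 at L10. All 5 lactation values lay above the rest. At Id2 Mylk measured 484, 3509 and 221 CPM, and in luminal cells 4.74 to 77.7 CPM (median 16.9).

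Cnn1, a calponin restricted to smooth muscle and myoepithelial cells, binds actin and slows the myosin motor. In basal cells it measured 860, 1302 and 1788 CPM at W10, 1545, 735 and 854 at M4 and 862, 1151 and 1399 at Iw4. It measured 558, 897 and 862 CPM at P3.5, 1123 and 914 at P14.5, 6103, 5277 and 2441 at L3 and 4327 and 5286 at L10. Lactation and non-pregnant libraries did not overlap. At Id2 Cnn1 measured 8.74, 316 and 8.08 CPM, so that replicates 2 and 6 fell within the luminal range of 1.30 to 32.0 CPM (median 6.61).

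Myocd, the cofactor that turns Srf toward muscle genes, was a gene of low level with a different course. Its basal values were 5.40, 2.77 and 5.96 CPM at W10, 5.09, 6.07 and 3.35 at M4, 5.70, 10.2 and 7.19 at Iw4 and 6.28, 3.06 and 2.74 at P3.5. They were 12.0 and 20.4 CPM at P14.5, 38.0, 99.5 and 126 at L3, 283 and 384 at L10 and 16.4, 301 and 11.2 at Id2. The lactation libraries with the most pericyte marker RNA were thus those with the most Myocd, and no Id2 library fell below the non-pregnant range. In luminal cells Myocd ran from 0 to 3.55 CPM (median 0.150).

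Des, which forms the intermediate filaments of muscle cells, followed the order of the pericyte sum within lactation, as Myocd did. It measured 2.44, 2.97 and 5.20 CPM at W10, 7.42, 12.2 and 4.27 at M4, 6.42, 15.5 and 9.48 at Iw4 and 2.38, 1.27 and 5.92 at P3.5. It measured 36.1 and 19.8 CPM at P14.5, 102, 254 and 262 at L3, 606 and 863 at L10 and 61.7, 500 and 28.6 at Id2. Des was thus near the bottom of the list in non-pregnant glands and above that range in every library from P14.5 to Id2. The ratio of Des to the pericyte marker Rgs5 stayed between 0.0198 and 0.190 in all 22 basal libraries. That of Myocd to Rgs5 ran from 0.00754 to 0.352, and that of Acta2 to Rgs5 from 0.247 to 589. In luminal cells Des ran from 0 to 6.82 CPM (median 1.14).

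Ppp1r12b, a targeting subunit of the myosin phosphatase, was higher in basal and lower in luminal cells of lactating than of non-pregnant glands. Its basal values were 64.3, 65.0 and 142 CPM at W10, 80.8, 78.5 and 81.5 at M4 and 108, 120 and 135 at Iw4. They were 41.7, 28.3 and 33.0 CPM at P3.5, 118 and 114 at P14.5, 684, 731 and 460 at L3, 779 and 912 at L10 and 73.1, 439 and 71.3 at Id2. All lactation values lay well above the highest non-pregnant value. Luminal libraries showed the opposite order, with Ppp1r12b at 29.1 to 54.4 CPM (median 31.3, n = 9) in non-pregnant and 9.86 to 27.5 CPM (median 15.0, n = 6) in lactation libraries, without overlap.

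Pdlim3, a PDZ and LIM protein of alpha actinin complexes, also moved apart, with more overlap. In basal cells it measured 650, 316 and 731 CPM at W10, 469, 402 and 537 at M4 and 470, 553 and 721 at Iw4. It measured 267, 357 and 345 CPM at P3.5, 515 and 520 at P14.5, 1192, 1313 and 544 at L3, 926 and 1073 at L10 and 20.8, 160 and 5.82 at Id2. L3 replicate 6 was within the non-pregnant range, and all 3 Id2 libraries were below it. In luminal cells Pdlim3 was 79.4 to 196 CPM (median 114, n = 9) in non-pregnant and 7.36 to 163 CPM (median 41.9, n = 6) in lactation libraries.

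Tnni2 belongs to the troponin complex of fast skeletal muscle and was read almost only in lactating basal cells. It measured 96.0, 66.6 and 19.5 CPM at L3 and 12.6 and 2.66 CPM at L10. The 5 lactation libraries held 2104 reads of Tnni2 and the 9 non-pregnant basal libraries 2, a ratio of 1614 with a 95% counting interval of 446 to 13334 (exact binomial, counting error only). At P3.5 and Id2 it was at most 0.775 CPM, and at P14.5 it was at 0 in both libraries. Luminal libraries stayed at or below 3.16 CPM for Tnni2. Mylpf, the light chain of the same fast fibres, was at 0 in all 5 basal lactation libraries, while Acta1, Myh1 and Myh2 were called higher there, with a summed level of the skeletal list of 32.5 to 71.7 CPM against 3.35 to 8.86 CPM in non-pregnant basal libraries.

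**Figure D2:**
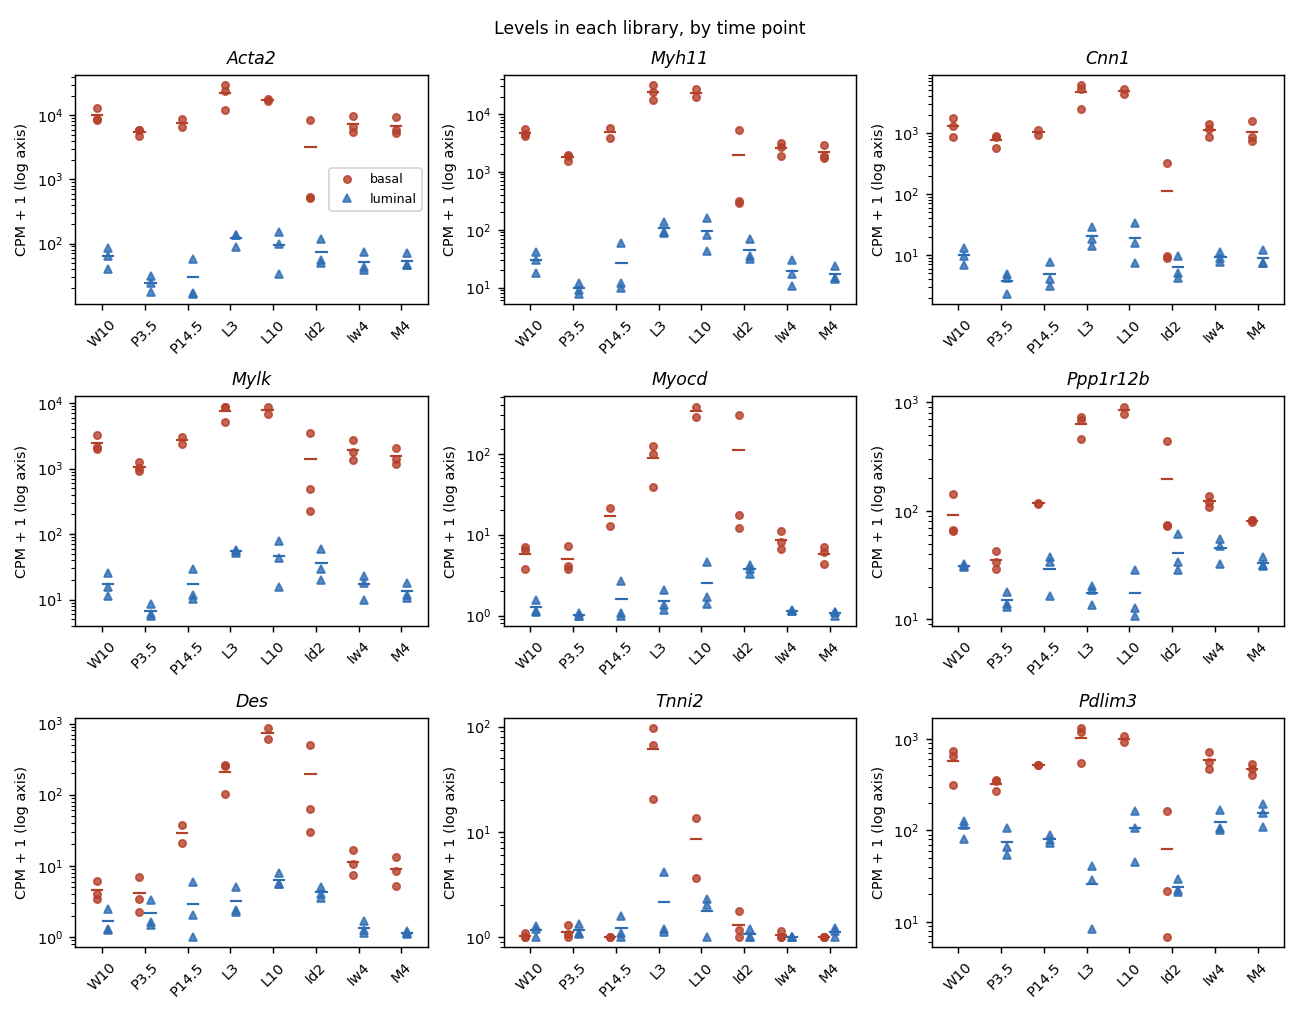
Level in CPM (log axis, drawn as CPM + 1) of the 9 members described library by library, at each time point, with basal and luminal libraries as separate points and a line at each mean. Every basal lactation library lies above every non-pregnant one except for Acta2 and Pdlim3, and at Id2 replicate 4 stands apart from replicates 2 and 6.

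The comparison of lactation with non-pregnant glands in basal cells gave 26 members called higher and none lower, against 10.4% and 7.78% of all genes. The estimate was above 0 for 38 of the 39 members, the exception being Cnn3 (-0.30 ± 0.18), and the median was 1.43 over the members and -0.04 over all genes. For 26 members every basal lactation library lay above every non-pregnant one, against 7.91% of all genes. The count was 25 to 31 with any library left out, 26 by edgeR on the recovered reads, and 27 without the Id2 basal libraries. The pericyte, endothelial and other marker values given above move with this comparison.

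Actg2 rose by 2.82 ± 0.51 (adjusted p 2.8e-05) and Acta2, at 1.28 ± 0.43, missed the threshold (adjusted p 0.015), as limma's test gave them. Acta2 passed at the same log2 change when the Id2 basal libraries were left out of the fit (adjusted p 0.0008) and when the spread came from the compared conditions only (0.0041). It also passed, at a larger log2 change of 1.48, when L3 replicate 6, its lowest lactation library, was left out. The actin genes are near-identical in coding sequence, so that reads fitting several of them could have been split or dropped in counting, and the values of Actg2 are uncertain to that extent. Among the myosin chains Myh11 rose by 2.99 ± 0.45 and Myl9 by 2.39 ± 0.46, and Myl6 reached 1.00 ± 0.21 but stayed just short of the fold threshold. The ratio of Myh11 to Acta2 within a library, which no scaling of the library can change, was 0.819 to 1.57 in the 5 lactation libraries and 0.264 to 0.668 in the other 17, Id2 included. All 4 genes acting on the light chain rose: Mylk by 2.00 ± 0.40, Ppp1r12a by 2.21 ± 0.21, Ppp1r12b by 2.93 ± 0.29 and Ppp1r14a by 2.32 ± 0.25. A kinase, its opposing phosphatase subunits and an inhibitor of that phosphatase thus rose in the same libraries. Of the upstream kinases Rock2 rose by 1.19 ± 0.14, while Rock1 (0.50 ± 0.23) and Prkg1 (0.65 ± 0.39) were not called.

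On the thin filament 8 of 11 genes rose, namely Cnn1 (2.02 ± 0.48), Tagln (1.58 ± 0.32), Tpm1 (2.08 ± 0.28), Tpm2 (2.92 ± 0.46), Cald1 (2.71 ± 0.27), Smtn (1.15 ± 0.23), Lmod1 (2.98 ± 0.36) and Tnni2 (4.21 ± 0.29, a fitted value that depends on the pseudocount). Cnn2 (0.79 ± 0.25), Cnn3 and Tpm4 (0.97 ± 0.21) were not called, Tpm4 by its fold alone. Among the intermediate filament genes Des rose by 5.66 ± 0.44, Synm by 3.12 ± 0.34 and Synpo2 by 3.25 ± 0.39, and Svil was not called (0.40 ± 0.20). The change of Des was the largest of any member on the log2(CPM + 1) scale. In reads that of Tnni2 was larger (ratio 1614, given above), as mean Des went from 7.32 to 417 CPM. Of the dense body and adhesion genes 6 of 10 rose by between 1.07 (Lpp) and 1.68 (Flna), the others being Actn4, Pdlim7, Csrp1 and Tln1. Actn1 (0.74), Flnc (0.75), Pdlim3 (0.90) and Vcl (0.96) were not called. Myocd rose by 4.65 ± 0.44 (adjusted p 1.2e-10 by limma) and Srf stood at 0.94 ± 0.22, under the fold threshold. Lpp lost its call without L10 replicate 6 (0.95), with W10 and M4 alone as non-pregnant (0.97) and with L3 alone as lactation (0.87). With L3 alone Rock2 (0.84) also fell under the fold threshold, and with L10 alone Cnn1, Smtn and Csrp1 missed the limma threshold at adjusted p 0.014, 0.015 and 0.012.

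**Figure D3:**
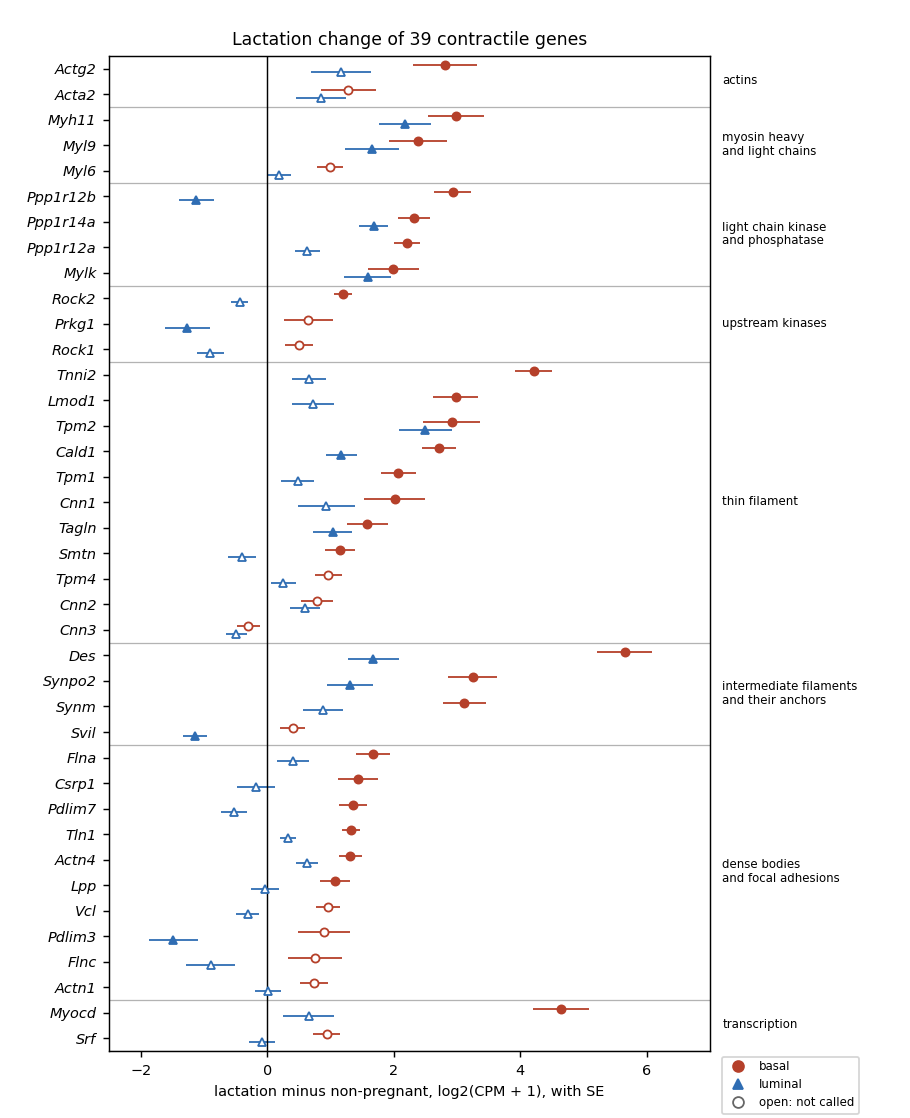
Log2 change from non-pregnant to lactation for each member in basal and in luminal cells, with bars of 1 SE and filled symbols where the change was called. In basal cells 26 changes were called, all upward, and Des, Myocd and Tnni2 lie farthest to the right.

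The members differed in how closely they went with the pericyte markers across the 22 basal libraries. Pearson's r with the mean centred level of the pericyte list was 0.96 for Des, 0.91 for Myocd, 0.83 for Rock2 and 0.81 for Ppp1r12b, and these were the only members above 0.8 with all 22 libraries. Without the Id2 libraries 14 members were above 0.8, among them Myh11 (0.85), Myl9 (0.85), Mylk (0.85), Lmod1 (0.86) and Tpm2 (0.81). Ppp1r12b was then at 0.90 and Rock2 at 0.80. Of the 29 members outside a core of 10 contractile genes (Acta2, Actg2, Myh11, Mylk, Myl9, Cnn1, Tagln, Smtn, Lmod1 and Tpm2), 20 had a higher r with the mean of that core than with the pericyte list, and 26 without the Id2 libraries. The core is itself made of members, many of which pericytes use, so these counts do not tell basal from pericyte RNA. Without Id2, r with the basal markers outside the list was above the pericyte r for Acta2, Tagln and Smtn. It was below the pericyte r for Myh11 (0.59 against 0.85), Mylk (0.57 against 0.85), Myl9, Lmod1, Tpm2, Actg2 and Cnn1. With all 22 libraries it was above the pericyte r for every core gene. These values are descriptions over libraries that all genes share. L3 replicate 4 had the least pericyte marker RNA of the lactation libraries, 1905 CPM. Its Acta2 (29688 CPM) and Cnn1 (6103 CPM) were the highest of all 22 basal libraries, as was its sum of the basal markers outside the member list (11575 CPM). Its Des (102 CPM) and Myocd (38.0 CPM) were the lowest of lactation. Of the core genes, Myh11 (31707 CPM) and Mylk (8842 CPM) were highest in other lactation libraries.

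**Figure D4:**
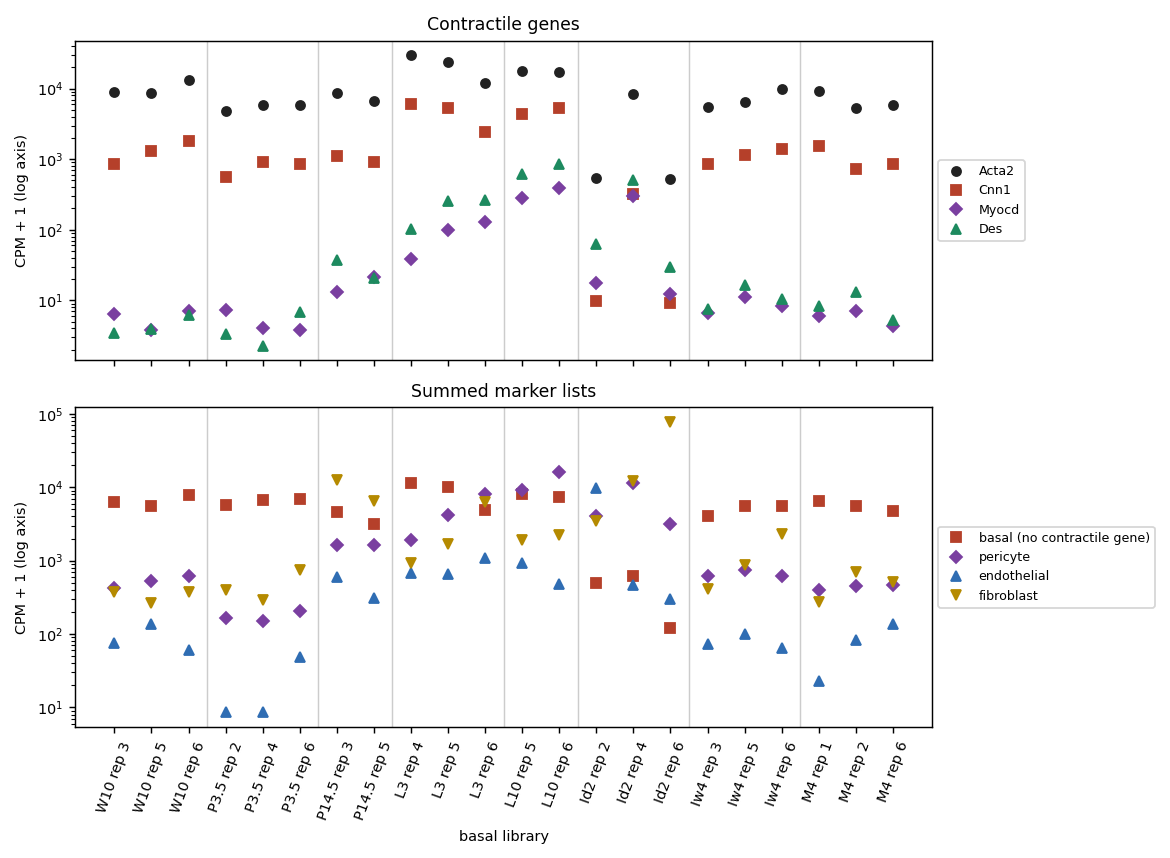
Upper panel, level in CPM (log axis, drawn as CPM + 1) of Acta2, Cnn1, Myocd and Des in each of the 22 basal libraries. Lower panel, summed CPM of the basal markers outside the member list and of the pericyte, endothelial and fibroblast markers in the same libraries. Within lactation Des and Myocd follow the order of the pericyte sum, whereas Acta2 and Cnn1 are highest in L3 replicate 4, at a sum of 1905 CPM.

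The rest of the pathway was read from lists outside the members, beside the 10.4% of all genes called higher and 7.78% called lower in basal lactation libraries. Of 19 genes of integrin adhesion and actin anchoring 9 rose and none fell (median 0.99), led by Ldb3, a PDZ and LIM protein of muscle (4.09 ± 0.47), and Lims2 (3.92 ± 0.41). Among the others that rose were Ilk, Parvb, Zyx, Tns1, Palld and Tmod1, of which Ilk shares 76.7% of its exon bases with Taf10 and Tmod1 32.6% with Tstd2.

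Of 7 nonmuscle actins and myosins Actb alone rose (1.03 ± 0.22, 5758 to 10860 CPM against 3697 to 5139), with a list median of -0.15. The next largest change on that list, that of Myl12a (-0.59 ± 0.24), was not called. Of 27 listed paralogues of the members 22 were in the table, of which 5 rose and 2 fell (median 0.64), with the cardiac actin Actc1 (3.11 ± 0.23) and the LIM protein Csrp2 (2.73 ± 0.37) first. Actc1 was at 15.1 to 30.4 CPM in lactation. The limit given above for Actg2, reads fitting several actin genes, holds for Actc1 and Acta1 too. Of 11 cofactors and rivals of Srf 3 rose, namely Mef2c (2.33 ± 0.41), the actin-sensing cofactor Mrtfa (1.29 ± 0.21) and Klf4. Among 6 immediate early targets of Srf, Fosb rose (1.59 ± 0.32) and Egr2 fell by 2.06 on the log2 scale, from 370.1 to 1513 CPM down to 113 to 205 CPM.

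The same comparison in luminal cells gave 9 members higher and 4 lower, against 7.45% and 5.66% of all genes (member median 0.48). The members called higher were Tpm2 (2.50 ± 0.42), Myh11 (2.18 ± 0.42), Ppp1r14a (1.68 ± 0.24), Des (1.68 ± 0.41), Myl9 (1.65 ± 0.43), Mylk (1.59 ± 0.37), Synpo2, Cald1 and Tagln. Those called lower were Pdlim3 (-1.49 ± 0.39), Prkg1 (-1.26 ± 0.36), Svil (-1.14 ± 0.19) and Ppp1r12b (-1.12 ± 0.27). The basal markers Krt5, Krt14, Trp63 and Snai2, 4 of the 6 on that list, rose in the same luminal libraries. Of the endothelial list 8 of 9 markers rose, with a summed level of 4.67 to 32.7 CPM in non-pregnant, 108 to 440 CPM at L3 and 41.0 to 342 CPM at L10 luminal libraries. Of the pericyte list 4 of 10 rose, among them Rgs5 (3.11 to 12.0 CPM in non-pregnant and 23.9 to 109 CPM in lactation libraries). The summed pericyte level was 599 to 1273 CPM in non-pregnant, 252 to 597 CPM at L3 and 705 to 817 CPM at L10 luminal libraries. That sum includes Anpep, which luminal cells also carried, and so does not follow pericyte RNA alone here. Its non-pregnant median was 767 CPM in luminal and 519 CPM in basal libraries. The immune sum was 9.22 to 18.0 CPM in non-pregnant, 18.6 to 75.6 CPM at L3 and 38.3 to 268 CPM at L10 luminal libraries. The fibroblast sum was 81.3 to 480, 65.1 to 336 and 39.8 to 971 CPM in the same order. The part of these markers in the luminal change was not tested. Only for Myh11 and Ppp1r14a did every luminal lactation library lie above every non-pregnant one (4.07% of all genes). Without L10 luminal replicate 5 the count fell to 7 members, 1 of them lower. The fall of Ppp1r12b lost its call without that library (-0.99), with W10 and M4 alone as non-pregnant (-0.97) and, by limma's adjusted p, with L3 alone (0.018) or L10 alone (0.011).

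The basal minus luminal change with lactation was called above 0 for 19 members and below 0 for none, by limma's interaction test. The shares of all genes were 5.96% and 5.45% (member median 1.40, all genes 0.00). The difference is signed and includes falls in luminal cells: Prkg1 and Svil were called there, as falls, and not in basal cells. The largest differences were those of Ppp1r12b (4.05 ± 0.40), Myocd (3.99 ± 0.60), Des (3.98 ± 0.60), Tnni2 (3.56 ± 0.40) and Pdlim3 (2.38 ± 0.57). They arose differently. Ppp1r12b rose in basal and fell in luminal cells, the fall with the lost calls given above, Myocd, Des and Tnni2 were at or below 6.82 CPM in every luminal library, and Pdlim3 was called in luminal cells alone, as a fall. Among the actins, myosin chains, Mylk and Cnn1 no difference was called, with Actg2 at 1.65 ± 0.69, Acta2 at 0.44 ± 0.58, Myh11 at 0.81 ± 0.61, Mylk at 0.41 ± 0.55 and Cnn1 at 1.08 ± 0.66. Without the Id2 basal libraries 23 members were called, with Actg2 (adjusted p 0.0049), Flna, Lpp and Srf added. The calls of Prkg1, Csrp1 and Synpo2 were each lost when any of 19, 14 and 11 single libraries was left out. By edgeR 13 members were called, and Tnni2 (adjusted p 1), Myocd (0.24), Des (0.12), Synpo2 (0.055), Prkg1 (0.033) and Csrp1 (0.011) were not. Ppp1r12b and Pdlim3 were called by both. The luminal fall of Pdlim3 lost its call without L3 luminal replicate 6 (-1.15), without L10 luminal replicate 5 (-1.23) and with L10 alone (-0.43), and its difference between cell types lost its call with L10 alone (1.36). With L10 as the sole lactation time point 7 members were called.

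Between early and mid pregnancy, P14.5 against P3.5 in basal cells, 2 members rose and none fell (2.46% and 1.18% of all genes). Des rose by 2.89 ± 0.70 and Synm by 2.40 ± 0.55. Both encode muscle intermediate filament proteins, and Myh11 (1.38 ± 0.72) and Acta2 (0.46 ± 0.69) were not called. The pericyte sum was at most 202 CPM at P3.5 and at least 1630 CPM at P14.5, and the fibroblast sum at most 753 and at least 6415 CPM. The endothelial sum was at most 47.6 CPM at P3.5 and at least 310 CPM at P14.5. The immune sum was at most 8.80 and at least 20.7 CPM, and the milk protein sum at most 563 and at least 5800 CPM. Those values move with the Des and Synm change, and their part in it was not tested. Both calls were lost when P3.5 replicate 2 or 4 or either P14.5 library was left out, and that of Synm also without P3.5 replicate 6. By edgeR only Synm was called. Without the Id2 basal libraries in the fit 5 members were called, with Ppp1r12b (1.75), Lmod1 (1.63) and Myocd (1.80) added.

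Within lactation, L10 against L3, Tnni2 fell by 2.86 on the log2 scale (SE 0.47, adjusted p 0.00043 by limma) and no other member was called (0.679% of all genes lower, 0.457% higher). The call was lost without L10 replicate 6 (-1.92) and by edgeR (-2.99, adjusted p 0.14), and it was kept with a block by the day of the sort. Myocd (2.06 ± 0.71) and Des (1.93 ± 0.70) had positive estimates that missed the threshold at adjusted p 0.092 and 0.12 (without the Id2 basal libraries Myocd was called at adjusted p 0.006), and Acta2 (-0.24), Myh11 (-0.05), Mylk (0.09) and Cnn1 (0.16) were not called.

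Early involution was compared with the virgin gland of the same amplification batch, Id2 against W10. In basal cells 4 members were higher and 15 lower, against 8.78% and 8.58% of all genes (member median -0.70). The 15 lower members held both actins, Myh11, 6 thin filament genes (Cnn1, Cnn2, Tagln, Tpm2, Smtn and Lmod1), Synm, Svil, Pdlim3, Csrp1, Prkg1 and Srf. The largest falls were those of Cnn1 (-5.38 ± 0.70), Pdlim3 (-4.21 ± 0.60) and Actg2 (-3.98 ± 0.73). The 4 higher members were Des (4.47 ± 0.63), Myocd (2.86 ± 0.63), Rock2 (1.27 ± 0.21) and Tpm4 (1.04 ± 0.30). In the same libraries all 6 basal markers outside the list fell (median -6.20), while 9 of 10 pericyte, 8 of 9 fibroblast and 7 of 9 endothelial markers rose. The fibroblast sum reached 77747 CPM in replicate 6 and the endothelial sum 9864 CPM in replicate 2. The immune sum was 48.6 to 99.7 CPM at Id2 and 10.2 to 22.2 CPM at W10. The milk protein sum was 13466 to 59423 CPM at Id2 and 314 to 2130 CPM at W10. The part of these markers in the member changes was not tested.

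The ratios between members within each library did not scale together at Id2. Acta2 to Cnn1 was 61.5, 26.6 and 63.7 there, and 3.22 to 10.3 in the other 19 basal libraries. Acta2 to Krt5 was 53.7 to 115 at Id2 and 1.90 to 8.56 elsewhere, while Cnn1 to Krt5 was 1.16 to 2.02 at Id2 and 0.251 to 2.34 elsewhere. Cnn1 to Krt5 thus stayed within the range of the other libraries, and Acta2 to Krt5 did not. In Id2 replicates 2 and 6 both genes were low (Cnn1 8.74 and 8.08 CPM, Krt5 4.68 and 6.95 CPM), so their ratio there rests on low levels. The calls rested on few libraries: without replicate 6 at Id2, or without replicate 6 at W10, 12 members in place of 19 were called, by edgeR 10, with the spread of W10 and Id2 alone 2, both lower, and with Id2 replicates 2 and 6 both left out 7. With those 2 libraries left out Myh11 stood at 0.18 and Acta2 at -0.25, while Des (6.84) and Myocd (5.78) remained called. Myocd lost its call without replicate 4 (1.40), and the fall of Myh11 lost its call when any of 3 single libraries was left out.

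In luminal cells at Id2 Prkg1, Svil, Pdlim3 and Srf were lower than at W10 and no member was higher (4.14% and 6.23% of all genes), and the count fell to 1 without Id2 luminal replicate 4 or 6 and to 2 without W10 luminal replicate 3 or 5. In the same luminal libraries 6 of the 7 immune, 4 of 9 fibroblast, 3 of 10 pericyte and 1 of 9 endothelial markers were called higher. The fibroblast sum was 244, 579 and 5677 CPM in Id2 luminal replicates 2, 4 and 6 against 125 to 411 CPM at W10, and the endothelial sum 80.8 to 260 against 14.8 to 32.7 CPM. Rgs5 measured 106 to 211 CPM at Id2 and 3.11 to 7.71 CPM at W10. The pericyte sum, which in luminal cells includes their own Anpep, was 773 to 947 CPM at Id2 and 599, 696 and 1273 CPM at W10. The part of these markers was not tested. The Id2 change was larger in basal cells for Rock2 (1.79 ± 0.29) and lower for Cnn1 (-4.69 ± 0.99) and Lmod1 (-3.17 ± 0.73), against 2.6% and 4.25% of all genes. With the sort as a replicate block 9 members were called, 2 higher and 7 lower. Without Id2 basal replicate 4 it was 16 members, 15 of them lower. The calls of Cnn1 and Lmod1 were both lost by edgeR, with the spread of the compared conditions alone and without Id2 basal replicates 2 and 6. That of Rock2 was lost with the spread of the compared conditions alone.

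Finally, Iw4 was compared with M4, that is, glands 4 weeks after weaning with virgin glands. The libraries of both were amplified in the same batches, and the fit did not pair them by batch. None of the 39 members was called by limma or by edgeR, none had an unadjusted p under 0.05, and 1 of all genes was called (0.00586% lower, 0% higher). The member median was 0.03.

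Outside the member list, the 8 genes whose course over the 22 basal libraries was most like the mean of the 10 core contractile genes were Kcnmb1 (r = 0.98), Slc2a4 (0.96), Tent5b (0.96), Asb2 (0.96), Unc45a (0.95), Pygb (0.95), Dstn (0.95) and Kcnma1 (0.94), of 10545 genes compared. Kcnma1 and Kcnmb1 encode the pore and beta subunits of the large-conductance potassium channel, Slc2a4 the insulin-responsive glucose transporter, Unc45a a myosin chaperone, Pygb a glycogen phosphorylase and Dstn an actin-severing protein. Kcnmb1 averaged 233 CPM in basal lactation libraries, 64.2 CPM in non-pregnant and 29.9 CPM in Id2 libraries. Kcnma1 averaged 99.0, 22.6 and 2.32 CPM in the same order. Without the Id2 libraries r was 0.90 to 0.96 for these 8 genes, but the 8 genes then ranked first were others (Optc, Rras, Cav1, Cdh13, Clmp, Myadm, Mtss1l and Lynx1), with 0 shared.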

How the data were processed

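Libraries were made by the authors from 5 ng of sorted-cell RNA with Ovation RNA-Seq System V2 amplification and aligned to mm9 with GSNAP, and reads per gene were counted with HTSeq, without a stated strand setting. The deposited signal is reads divided by edgeR effective library size (CPM); all values were whole multiples of 1 read within 0.001, so reads were recovered. All 46 columns were matched to samples (0 unmatched), of 47 described; basal P14.5 replicate 2 is not analysed here. Symbols were found for 16897 of 17078 gene IDs (181 without).

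Members, lists and tests were chosen with earlier results of these data known. Described library by library were Acta2, Myh11, Cnn1, Mylk, Myocd and the 5 called members with the largest difference between cell types in the lactation change (9 genes, since Myocd is named by both); from each pathway list given, the 2 genes of largest basal lactation change. A further pathway list and a gene of another are not reported here. Tests used limma 3.58.1 (R 4.3.3, trended variance) on log2(CPM + 1) over 16 condition means, Benjamini-Hochberg adjusted over all genes, and were checked on simulated data. Alternatives included edgeR 4.0.16 on recovered reads. Luminal and basal cells of equal replicate number came from the same sort, which pairs them (some sorts of L3 and L10 shared a day, tried as a further block): 21 of 22 pairs deviated together (median correlation 0.25).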

Additional observations from a re-analysis of the deposited data

Results flagged for a closer look

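For 22 values the effect of the reproductive stage differed between basal and luminal cells by limma's interaction test over all 17078 genes, each as log2 basal minus luminal change at an adjusted p under 0.01. With lactation 19 of the 39 members were called above 0 and 0 below, against 5.96% and 5.45% of all genes. At Id2 it was 1 above and 2 below 0, near the 2.6% and 4.25% of all genes. With lactation the differences were 4.05 for Ppp1r12b, 3.99 for Myocd, 3.98 for Des, 3.56 for Tnni2, 2.38 for Pdlim3, 2.25 for Lmod1 and 2.24 for Synm. They were 1.94 for Synpo2, 1.91 for Prkg1, 1.88 for Pdlim7, 1.63 for Rock2, 1.61 for Csrp1, 1.59 for Tpm1 and 1.57 for Ppp1r12a. The calls of Prkg1, Csrp1 and Synpo2 were lost when any of 19, 14 and 11 single libraries was left out, and those of Cald1 and Rock1 without L10 basal replicate 6. By edgeR the differences of Myocd, Des, Tnni2, Synpo2, Prkg1 and Csrp1 were not called. Smaller differences were those of Smtn (1.55), Cald1 (1.54), Svil (1.54), Rock1 (1.40) and Vcl (1.27). At Id2 the differences were 1.79 for Rock2, -4.69 for Cnn1 and -3.17 for Lmod1. The calls of Cnn1 and Lmod1 were lost by edgeR and without Id2 basal replicates 2 and 6, and all 3 were lost with the spread of the compared conditions alone. Rock2 and Lmod1 appear at both stages, Lmod1 with opposite signs. The basal level of Rock2 was 367.9 to 773 CPM in lactation and 601 to 919 CPM at Id2, against 167 to 343 CPM in the 9 non-pregnant basal libraries. No group was large enough for the check of single outlying libraries.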

How the results depend on the processing

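Of 487 recomputed counts of members, 426 stayed within 1.5 times the value reported, and of 5360 recomputed log2 values 5131 kept their direction and side of the threshold. Rescaling libraries by median ratios, or taking W10 and M4 alone as non-pregnant, moved no count by more than 1.5 times. Low members such as Tnni2 and Myocd rest on few luminal reads, where 3 reads came to as much as 1.05 CPM. Where leaving out a library left a condition with 1, its spread was taken from the other conditions. The choice of L3 or L10 alone, leaving out Id2 basal replicates 2 and 6 together, and the block by day were made after seeing the data.

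The spread of the compared conditions alone gave 1 member at Id2 between cell types, 2 for the basal Id2 change (0 higher, 2 lower), 1 for the luminal Id2 change, and 0 for the Id2 difference (0 higher, 0 lower) and for L10 against L3. By edgeR the counts were 10 for the basal Id2 change (7 lower), 1 for the Id2 difference (0 lower), 1 for P14.5 against P3.5 and 0 for L10 against L3. At an adjusted p under 0.05 there were 8 for the luminal Id2 change and 12 for the Id2 difference (3 higher, 9 lower). With L10 alone as lactation there were 5 luminal members (5 higher, 0 lower) and 7 for the lactation difference. A pseudocount of 0.1 gave 1 for P14.5 against P3.5 and 0 for L10 against L3, as did a mean of at least 5 CPM for the latter (0). Without the basal Id2 libraries these were 5 and 2. Without Id2 basal replicates 2 and 6 together, 7 members were called in the basal Id2 change (2 lower), with 3 higher and 0 lower in the Id2 difference.

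With the sort as a replicate block (consensus correlation 0.179) the Id2 difference had 9 members (2 higher, 7 lower), and no other count moved by more than 1.5 times; the lactation difference had 22. With a block by the day of the sort, which joins the L3 and L10 libraries of 1 day (22 days, 24 sorts, consensus correlation 0.147), these counts were the same.

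Leaving out each library gave 12 to 23 members in the basal Id2 change (2 to 3 higher, 9 to 21 lower) and 2 to 16 in the Id2 difference (1 to 2 higher, 1 to 15 lower). It gave 1 to 5 in the luminal Id2 change, 7 to 13 in luminal lactation (6 to 9 higher, 1 to 4 lower), 14 to 23 in the lactation difference, 0 to 1 for L10 against L3 and 0 to 1 for P14.5 against P3.5.

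Directions turned for these log2 values. With L3 alone Rock1 stood at -0.053 in basal lactation, and with L10 alone it was called at 1.06. In the lactation difference Cnn2 stood at -0.11 and Cnn3 at -0.16 with L10 alone. With each library left out, the lactation difference ran from -0.044 (without L3 luminal replicate 6) to 0.42 for Cnn2 and from -0.031 (without L10 luminal replicate 4) to 0.77 for Tpm2. In the basal Id2 change Myh11 stood at 0.18 and Mylk at 0.54 without replicates 2 and 6 together, and Ppp1r12b ran from -0.22 (without replicate 4) to 1.08 with each library left out. In the Id2 difference Pdlim3 stood at 0.41 without replicates 2 and 6, and Myocd at -0.12 with a pseudocount of 0.1. With each library left out, the Id2 difference ran from -0.53 to 0.78 for Ppp1r12b and from -0.18 to 2.14 for Myocd, lowest without replicate 4 in both. The cause of these changes was not tested.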
